A study of Mus musculus with 6 samples.

Results

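The genes analysed here carry out chromosomal DNA replication and supply its deoxynucleotides. They were chosen by name, as 48 genes read by step: the origin recognition complex (ORC), the factors that load the helicase, the MCM2-7 helicase, its partners at the fork, DNA polymerases with primase, the sliding clamp with its loader and the enzymes that join Okazaki fragments, the single-strand binding protein RPA, and nucleotide supply. Of these, 46 had a row among the 16982 genes of the count table, and Cdt1 and Gins2 were not analysed here. All 46 passed the filter on low counts, which left 13386 genes, and the lowest count of any of them in any library was 32.

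The 6 libraries came from mouse reprogrammable cells of C57BL/6 background, that is mouse embryonic fibroblasts (MEF) given OCT4, SOX2, KLF4 and C-MYC (OSKM) by retrovirus, harvested at day 3. They comprised 3 WT samples (WT replicates 1 to 3) and 3 Rnf20 knockout samples (knockout replicates 1 to 3), compared to ask what loss of RNF20, the E3 ligase that monoubiquitinates histone H2B, does to transcription early in reprogramming. The knockout cells descend from Rnf20 Flox/Flox; Tamoxifen-cre embryos, in which 4-OH tamoxifen removes exons 2 to 4, whereas the labels give every culture as untreated, and whether WT cells carried the Cre or received the drug is not given in the sources used here. The methods describe replating of infected cells on feeder layers of growth-arrested MEF, and the part of feeder RNA in these libraries was not measured. The labels and methods do not state whether the replicates were separate cultures, so p-values measure the spread between these samples only.

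Replication starts where ORC, with CDC6 and CDT1, loads a pair of MCM2-7 rings onto DNA, a step that geminin blocks once S phase has begun. CDC45 and the GINS complex then join MCM2-7 to form the active CMG helicase, polymerase alpha-primase lays down primers, and polymerases delta and epsilon extend them on the PCNA clamp, which the RFC complex loads. Many of these genes are known targets of the E2F transcription factors, which act as cells leave the resting state and enter S phase. In cycling cells ribonucleotide reductase, thymidylate synthase and thymidine kinase provide the deoxynucleotides.

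Promoter sequence is a property that the choice of genes did not use. RefSeq windows (GRCm38.p6) from 250 bases before to 50 bases after the start of transcription were found for 38 of the 46 genes. They were searched on both strands for TTTCCCGC, TTTCGCGC, TTTGCCGC and TTTGGCGC, forms of the E2F element, which can overlap each other on opposite strands. One or more of these occurred in 14 of 38 genes (36.8%), against 459 of 10069 tested genes with a window (4.56%) and 704 of all 27025 genes with a window (2.6%). Counted by window, they occurred in 14 of 46 windows of these 38 genes (30.4%), against 744 of all 32851 windows (2.26%). The 14 genes were Orc1, Orc3, Cdc6, Mcm3, Mcm5, Mcm6, Mcm7, Gins3, Pola1, Pold1, Pold3, Pole2, Rfc3 and Lig1. Of the 20 matches, 13 lay within 100 bases of the start, and the median position was 34 bases upstream (-34). The NF-Y letters CCAAT occurred in 23 of the 38 genes (60.5%) against 43.1% of tested genes, and the CHR letters TTTGAA in 5 (13.2%) against 14.4%. Base composition was not matched between these sets, and a match in letters is a description of the sequence and not of binding.

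The upstream parts of 5 windows are printed here, 5′ to 3′ on the strand of each gene and ending at or before its start, with the E2F letters in capitals. They were chosen after their values were seen: Mcm5, Mcm6 and Pola1 had large falls, Orc3 holds the letters and did not pass the test, and Orc4 was the gene that rose. In Mcm5 and in the first block of Mcm6 a match on each strand overlaps. The windows lie at chr8:75109259-75109508 (plus strand) for Mcm5, chr1:128359706-128359955 (minus strand) for Mcm6, chrX:93632156-93632405 (minus strand) for Pola1, chr4:34614945-34615192 (minus strand) for Orc3 and chr2:48950278-48950484 (minus strand) for Orc4.
Mcm5: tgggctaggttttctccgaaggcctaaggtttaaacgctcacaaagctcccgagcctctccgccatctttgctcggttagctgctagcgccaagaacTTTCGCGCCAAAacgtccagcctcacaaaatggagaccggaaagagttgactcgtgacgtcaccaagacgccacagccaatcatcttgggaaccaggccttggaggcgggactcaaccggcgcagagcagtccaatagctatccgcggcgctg
Mcm6: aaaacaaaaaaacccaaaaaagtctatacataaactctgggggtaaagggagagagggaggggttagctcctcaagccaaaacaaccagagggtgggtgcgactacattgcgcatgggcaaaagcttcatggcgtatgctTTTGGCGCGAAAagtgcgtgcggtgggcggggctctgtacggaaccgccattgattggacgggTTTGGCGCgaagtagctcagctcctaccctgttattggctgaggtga
Pola1: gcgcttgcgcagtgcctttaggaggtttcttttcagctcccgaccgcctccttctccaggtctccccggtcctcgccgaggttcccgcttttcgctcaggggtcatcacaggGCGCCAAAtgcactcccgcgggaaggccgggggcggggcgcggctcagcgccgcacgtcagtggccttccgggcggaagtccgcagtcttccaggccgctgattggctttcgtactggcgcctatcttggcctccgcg
Orc3: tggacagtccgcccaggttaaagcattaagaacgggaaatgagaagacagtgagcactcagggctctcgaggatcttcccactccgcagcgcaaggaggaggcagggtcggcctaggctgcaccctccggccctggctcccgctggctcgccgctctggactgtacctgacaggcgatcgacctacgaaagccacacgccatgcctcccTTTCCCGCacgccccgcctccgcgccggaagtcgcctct
Orc4: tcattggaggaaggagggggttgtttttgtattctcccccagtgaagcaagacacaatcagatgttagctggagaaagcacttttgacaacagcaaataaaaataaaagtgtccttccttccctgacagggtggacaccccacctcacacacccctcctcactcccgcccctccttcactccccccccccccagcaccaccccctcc
No window of Orc4 held any of the E2F letters. By the test described next, genes that were lower in knockout cells held them in 13 of 33 genes with a window (39.4%), and the genes that were higher or did not pass held them in 1 of 5 (20%), and this difference was not tested.

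Transcripts for nearly every step of replication were lower in knockout cells, and most of ORC was not. Genotypes were compared by the edgeR quasi-likelihood test on the counts, with Benjamini-Hochberg adjustment over the 13386 genes tested, and 0.05 was the threshold of the adjusted p. Of the 46 genes, 40 were lower in knockout cells (87.0%) against 16.6% of all genes tested, and 1, Orc4, was higher against 16.4%. Orc2, Orc3, Orc5, Gins4 and Rfc1 did not pass. The median log2 fold change (knockout over WT) was -1.14, against -0.00032 over all genes tested, and it ranged from -1.90 for Tk1, which was left at 26.7% of its WT mean, to 0.61 for Orc4, at 153%. Each knockout library was lower than each WT library in 41 of the 46 genes, against 28.2% of all genes tested. Fewer cycling cells and less of each transcript per cycling cell cannot be told apart in these bulk libraries.

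The thresholds of the study were an FDR under 0.01, a change over 2-fold and FPKM over 1. The methods do not say in which samples FPKM had to be over 1, and it was read here as a mean over 1 in at least 1 genotype. These thresholds were applied to the edgeR quasi-likelihood test, with its adjusted p as the FDR, and not to the authors' own FDR values. They called 15 of the 46 genes lower, against 2.08% of all genes tested, and 0 higher (0 over 2-fold also at an unadjusted p under 0.05 by edgeR, DESeq2 or the exact test). DESeq2 and the exact test each called 27 of the 46 lower at these thresholds, against 565 and 566 of all genes tested. The 15 genes called by the quasi-likelihood test were Orc1, Cdc6, Gmnn, Mcm7, Cdc45, Gins1, Gins3, Mcm10, Pold1, Pold2, Pole2, Pcna, Lig1, Rrm2 and Tk1. A further 12 genes were lower by over 2-fold with an adjusted p between 0.01 and 0.05. With single libraries left out, 0 of the 46 genes were called without WT replicate 1, 2 or 3 or without knockout replicate 2, 1 was called without knockout replicate 1, and 20 were called without knockout replicate 3. Over all genes tested the same thresholds called 279 genes lower with every library, 1 gene without any one WT library, 49 and 30 without knockout replicates 1 and 2, and 490 without knockout replicate 3, so that the calls moved over the whole table. At an unadjusted p under 0.05, 26 to 29 genes were lower by over 2-fold in the 4 fits without a call. At an adjusted p under 0.05 the number of lower genes was 28, 25 and 20 without WT replicates 1, 2 and 3, when 7.31%, 6.13% and 5.17% of all genes were lower, and 40, 39 and 41 without knockout replicates 1, 2 and 3, when 13.4%, 11.6% and 24.2% were. The median log2 fold change stayed between -1.33 and -0.94 in these fits.

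**Figure D1:**
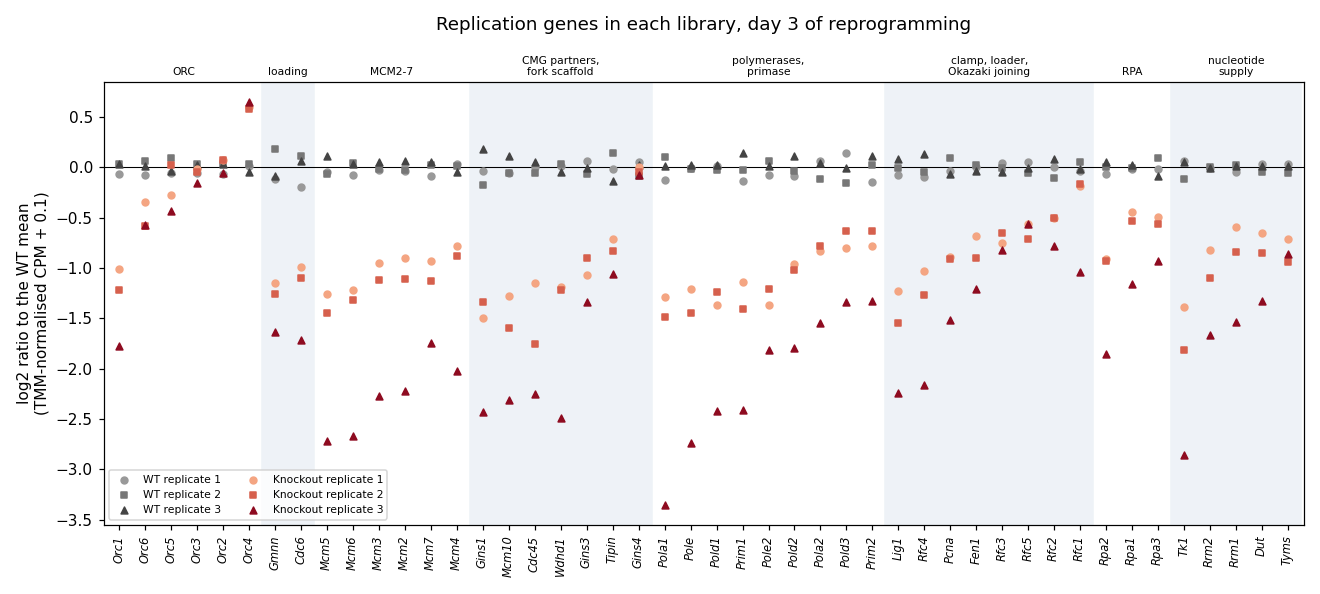
Log2 ratio of each library's CPM to the WT mean (pseudocount 0.1 CPM) for the 46 genes, grouped by step of replication; grey symbols are WT libraries and red symbols knockout libraries. The WT libraries lie near 0, knockout replicates 1 and 2 lie close together below them with medians of -0.90 and -0.93, and knockout replicate 3 is lowest in 42 of the 46 genes, while Orc4 lies above WT in every knockout library.

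The knockout libraries did not fall by the same amount. The median log2 ratio to the WT mean was -0.90 in knockout replicate 1, -0.93 in replicate 2 and -1.66 in replicate 3 (over all genes tested -0.0089, -0.010 and -0.022), as the plot of the ratios by library shows. Knockout replicate 3 was the lowest of the knockout libraries in 42 of the 46 genes, and in 44% of all genes tested. Taken alone, knockout replicates 1, 2 and 3 lay below every WT library in 42, 41 and 43 of the 46 genes. Totals ran from 20545442 to 21746898 counts, so depth differed little between libraries. Within genotypes the chi-square per gene was 6.04 to 8.92 among WT libraries and 8.57 between knockout replicates 1 and 2, against 92.4 and 101 between knockout replicate 3 and replicates 1 and 2. Over the 46 genes it was 2.62 to 2.74 among WT libraries, 6.02 between knockout replicates 1 and 2, and 91.3 and 61.8 with replicate 3. Every library was counted as a sample of its own, and these values cannot show whether the libraries were separate cultures.

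Other features moved with the knockout libraries. Rnf20 itself was at 107, 107 and 106 CPM in WT replicates 1 to 3 and 18.7, 18.5 and 16.4 CPM in knockout replicates 1 to 3 (CPM, counts scaled to the TMM-normalized library size). On the same scale the summed CPM of 4 Y-linked genes was 227 to 242 in WT and 266 in knockout replicate 2, but 0 and 0.048 in knockout replicates 1 and 3. The absence of Y-linked transcripts thus overlaps in part with the knockout. The median log2 ratio over the 46 genes was -0.93 in knockout replicate 2, with Y-linked transcripts. In knockout replicates 1 and 3, without them, it was -0.90 and -1.66. With Y-linked transcripts as a term in the model, genotype rests on knockout replicate 2 alone. In that fit by the edgeR quasi-likelihood test 0 replication genes passed as lower and 0 as higher after adjustment (34 and 1 at an unadjusted p under 0.05), 0.217% of all genes were lower, and the median log2 fold change was -0.94. Of 9 fibroblast markers, which stand for the starting cells and were detected in all libraries, 2 were lower (Thy1 and Pdgfra), against 16.6% of all genes tested. The summed CPM of the 9 was 26880 to 29260 in WT and 26430, 32880 and 17580 in knockout replicates 1 to 3. Nearly all of it was Col1a1, Col1a2, Col3a1 and Vim. Macrophage markers summed to 46.2 to 93.0 CPM in WT and 77.5, 49.4 and 246 CPM in knockout, with 0 of 7 passing the edgeR quasi-likelihood test at an adjusted p under 0.05 (0 at an unadjusted p, and 0 by DESeq2 or the exact test after adjustment) and none at 0. Epithelial markers summed to 41.4 to 43.1 CPM in WT and 33.8, 23.8 and 3.38 CPM in knockout, with 0 of 4 tested passing (2 lower at an unadjusted p, and 1 lower by DESeq2 and 2 by the exact test after adjustment). Krt8 was the largest part of the sum in WT, and Krt8, Krt18 and Epcam were below WT in every knockout library. Cdh1 was at 13.4, 9.40 and 1.81 CPM in knockout replicates 1 to 3 against a WT mean of 9.94 CPM. Cldn4, with few counts and not tested, was above WT in every knockout library. Endothelial markers summed to 48.3 to 59.0 and 66.9, 53.6 and 32.3 CPM, nearly all of it Tek, and skeletal muscle markers to 7.18 to 8.87 and 12.6, 7.84 and 4.33 CPM, nearly all of it Des, with Pecam1, Cdh5, Myod1 and Myog at or near 0. The part of these differences in the replication result was not tested. The 46 genes together summed to 2363, 2426 and 2455 CPM in WT and 1439, 1328 and 868 CPM in knockout replicates 1 to 3.

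**Figure D2:**
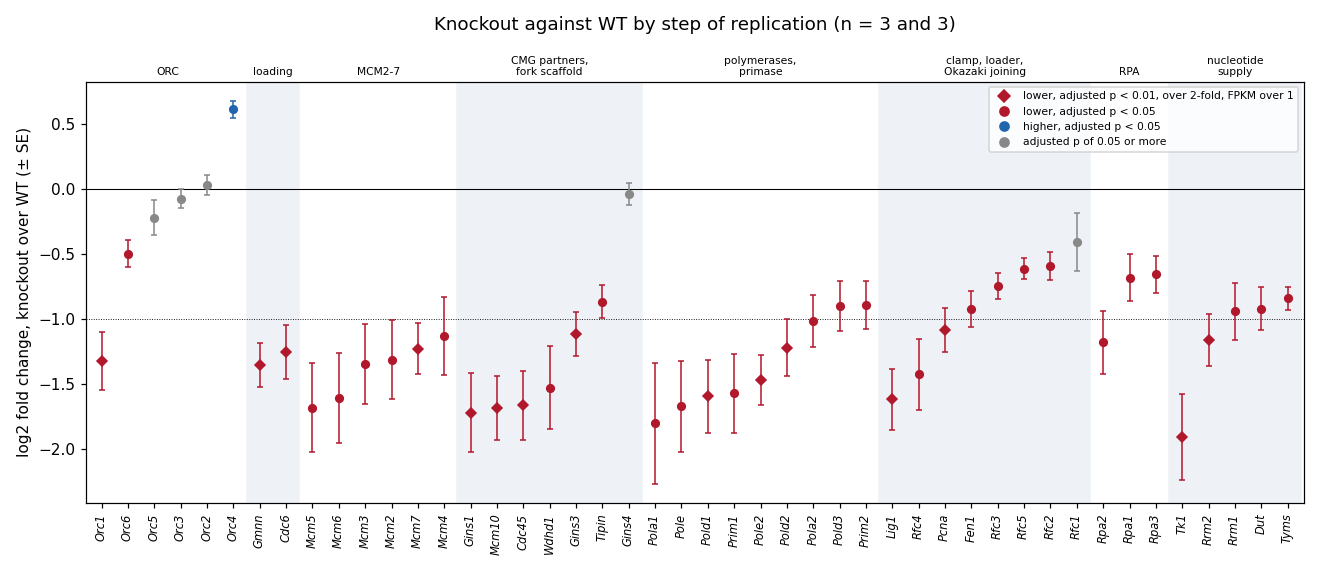
Log2 fold change of knockout over WT with its standard error for the 46 genes (n = 3 and 3, edgeR's quasi-likelihood test), by step of replication; diamonds mark genes past the thresholds of the study, red circles other genes lower and blue genes higher at an adjusted p under 0.05, and grey genes that did not pass. ORC spreads around 0 from -1.32 for Orc1 to 0.61 for Orc4, while the MCM2-7 and polymerase genes lie at -0.89 or lower.

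Of the 6 subunits of ORC, which marks origins, 2 were lower and 1 was higher, against 16.6% and 16.4% of all genes tested, and the median log2 fold change was -0.15. Orc1, the subunit whose level follows the cell cycle, was at 8.32, 8.97 and 8.92 CPM in WT replicates 1 to 3 and at 4.30, 3.70 and 2.48 CPM in knockout replicates 1 to 3. The groups did not overlap, and Orc1 fell by 1.32 on the log2 scale (SE 0.222, adjusted p = 0.00821 from the edgeR quasi-likelihood test). Orc4, an AAA+ subunit of the core complex, was at 38.2, 38.8 and 36.8 CPM in WT and at 57.5, 56.8 and 59.6 CPM in knockout libraries. Every knockout library was higher than every WT library, by similar amounts including replicate 3, with a log2 fold change of 0.61 (SE 0.0666, adjusted p = 0.00327 from the same edgeR test). Orc6 was lower by a smaller amount, with a log2 fold change of -0.50 (SE 0.101, adjusted p = 0.0141 from edgeR), and it was not called without WT replicate 2 (adjusted p = 0.0611) or without WT replicate 3 (adjusted p = 0.0621).

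Orc2, Orc3 and Orc5 had log2 fold changes of 0.03, -0.073 and -0.22, and their WT and knockout libraries overlapped (adjusted p = 0.786, 0.461 and 0.246 from the edgeR quasi-likelihood test). Over the fits that each omit 1 library these log2 fold changes stayed between -0.0041 and 0.074 for Orc2, between -0.10 and -0.033 for Orc3 and between -0.35 and -0.12 for Orc5. Orc4 lies on chromosome 2 (48902824 to 48950277, minus strand, GRCm38), and its exons share 446 bases (5.98%) with Acvr2a and 136 bases (1.82%) with Mbd5, both on the opposite strand. Neither neighbour passed, with log2 fold changes of -0.081 for Acvr2a and 0.32 for Mbd5 (adjusted p = 0.544 and 0.0567 from edgeR). Whether the counting used the strand is not given in the sources used here. Of Orc2, 29.8% of the exon bases are shared with Nif3l1 on the opposite strand, and reads of the pair may not be told apart.

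On the FPKM scale, which allows genes to be compared per length, the order of the ORC subunits changed. In WT the means were 25.0 ± 1.61 for Orc6, 23.7 ± 0.308 for Orc3, 21.9 ± 1.05 for Orc4, 17.4 ± 3.07 for Orc2, 12.2 ± 0.538 for Orc5 and 2.97 ± 0.117 for Orc1 (FPKM, SD, n = 3 each). The means of Orc6 and Orc3 lay within their spread of each other. In knockout cells Orc4 was the highest at 32.8 ± 1.78, and Orc1 the lowest at 1.18 ± 0.334. Of the summed ORC FPKM, Orc4 made up 22.5%, 21.3% and 20% in WT and 31.5%, 32.6% and 35.3% in knockout libraries. Orc1 made up 2.90%, 2.82% and 2.92% in WT and 1.34%, 1.25% and 0.927% in knockout. The sum itself, 97.8, 107 and 104 FPKM in WT and 109.7, 101 and 87.7 FPKM in knockout, overlapped between genotypes.

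**Figure D3:**
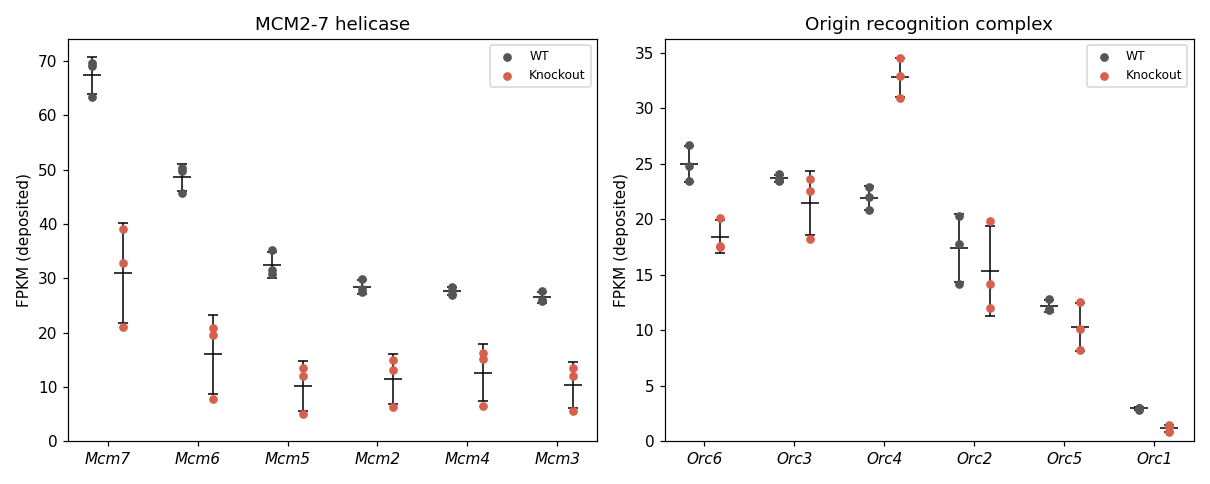
Deposited FPKM of each MCM2-7 subunit (left) and each ORC subunit (right) in the 3 WT and 3 knockout libraries, with mean and SD. The MCM2-7 subunits are lower in every knockout library, with Mcm7 the most abundant in both genotypes (67.3 and 30.9 FPKM), whereas of ORC Orc4 is higher and Orc1 and Orc6 lower in knockout cells.

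Both measured genes around helicase loading were lower. Cdc6, the ATPase that brings MCM2-7 to ORC, was at 13.7, 16.9 and 16.4 CPM in WT replicates 1 to 3 and at 7.83, 7.26 and 4.71 CPM in knockout replicates 1 to 3. It fell by 1.25 on the log2 scale (SE 0.207, adjusted p = 0.00794 from the edgeR quasi-likelihood test), with no overlap. Gmnn, which encodes geminin, the inhibitor of CDT1, was at 13.9, 17.1 and 14.2 CPM in WT and at 6.73, 6.22 and 4.76 CPM in knockout libraries. Its fall of 1.35 (SE 0.170, adjusted p = 0.00416 from edgeR) was of the same size, so that the transcripts of a loading factor and of an inhibitor of loading were both lower.

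All 6 subunits of MCM2-7, the ring that unwinds DNA at the fork, were lower, with knockout replicate 3 the lowest library in each. Mcm2 was at 97.8, 99.01 and 105 CPM in WT replicates 1 to 3 and 53.8, 46.5 and 21.5 CPM in knockout replicates 1 to 3. Mcm3 was at 85.5, 86.1 and 90.3 CPM and 45.1, 40.1 and 17.96 CPM in the same libraries. Mcm4 was at 95.1, 94.03 and 90.4 CPM and 54.4, 50.6 and 22.8 CPM. In these 3 genes knockout replicates 1 and 2 lay near each other, and replicate 3 stood well below both. Mcm5 was at 86.95, 85.4 and 96.7 CPM in WT and 37.6, 32.9 and 13.6 CPM in knockout libraries. Mcm6 was at 132, 145 and 143 CPM and 59.95, 56.1 and 22 CPM. Mcm7 was at 156, 168 and 172 CPM and 86.9, 75.5 and 49.4 CPM. No knockout library reached the lowest WT library in any of the 6 genes.

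The log2 fold changes were -1.68 (SE 0.342) for Mcm5, -1.60 (SE 0.345) for Mcm6, -1.34 (SE 0.311) for Mcm3, -1.31 (SE 0.307) for Mcm2, -1.23 (SE 0.197) for Mcm7 and -1.13 (SE 0.299) for Mcm4. The adjusted p-values from the edgeR quasi-likelihood test ran from 0.00739 for Mcm7 to 0.0297 for Mcm4. Mcm7, the only subunit past the thresholds of the study in this test, had a smaller fall than Mcm5, Mcm6, Mcm3 and Mcm2 but the smallest SE of the 6. By DESeq2 and by the exact test all 6 subunits passed these thresholds. Knockout replicate 3 stood apart: the median log2 ratio to the WT mean over the 6 genes was -0.94, -1.12 and -2.25 in the knockout libraries, and without replicate 3 the log2 fold changes were -1.35 for Mcm5, -1.27 for Mcm6 and -0.83 for Mcm4 and the adjusted p-values 1.74e-06, 9.27e-07 and 6.03e-06 in edgeR. Calls were lost with a WT library left out. Without WT replicate 1, 4 subunits (Mcm2, Mcm3, Mcm4 and Mcm6) had an adjusted p of 0.0520 to 0.0879 in edgeR, and without WT replicate 2 or 3 the same 4 and Mcm5 had 0.0524 to 0.0912 and 0.0607 to 0.0902, at log2 fold changes of -1.72 to -1.12.

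MCM2-7 is a ring with 1 copy of each subunit, and its transcripts were not at equal levels. The plot of FPKM by subunit shows Mcm7 above Mcm6 above the other 4 in all 6 libraries. In WT the means were 67.3 ± 3.43 FPKM for Mcm7, 48.6 ± 2.48 for Mcm6, 32.5 ± 2.40 for Mcm5, 28.5 ± 1.29 for Mcm2, 27.7 ± 0.708 for Mcm4 and 26.5 ± 1.03 for Mcm3 (SD, n = 3). Mcm2, Mcm4 and Mcm3 differed by about their spread, and their order varied between WT libraries. Mcm5 was the third in every WT library, the fifth in knockout replicate 1 and the lowest in knockout replicates 2 and 3. Its share of the summed MCM2-7 FPKM was 14.2%, 13.3% and 14.7% in WT and 11.5%, 11.5% and 9.61% in knockout libraries. The share of Mcm7 was 28.5%, 30.0% and 28.9% in WT and 33.0%, 31.2% and 40.1% in knockout libraries, and that of Mcm6 20.6%, 21.5% and 21% against 17.6%, 18.7% and 14.7%. Shares of Mcm2, Mcm3 and Mcm4 overlapped between genotypes. The sum over the 6 subunits was 222, 232 and 239 FPKM in WT and 118, 105 and 52.3 FPKM in knockout replicates 1 to 3.

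The 46 genes lie on 16 chromosomes, with 8 on chromosome 5, and the exons of 17 overlap those of another annotated gene. Mcm7 lies on chromosome 5 (138164583 to 138172422, minus strand, GRCm38). Its exons, as annotated in GENCODE M21, overlap those of Mir25 and Mir93 on the same strand, and those of Ap4m1 (7.25% of its exon bases) and Cops6 (1.45%) on the other. Ap4m1 and Cops6 had log2 fold changes of -0.21 and 0.015 and did not pass (adjusted p = 0.0995 and 0.864 from the edgeR quasi-likelihood test). Opposite-strand neighbours of some lower genes did pass as higher in this test. They were Ufd1 for Cdc45 (5.96% of exon bases, log2 fold change 0.41, adjusted p = 0.00766) and Vps35 for Orc6 (6.93%, 0.29, 0.0177). Eif4a2 for Rfc4 (12.7%, 0.29, 0.0361), Wsb2 for Rfc5 (10.7%, 0.64, 0.0108) and Afmid for Tk1 (1.60%, 0.39, 0.00960) also passed. The part of neighbour reads in these counts was not tested.

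Partners of the helicase were lower in 6 of 7 cases, with a median log2 fold change of -1.52. Cdc45, the CMG subunit that joins at firing, was at 19.4, 18.5 and 19.9 CPM in WT replicates 1 to 3 and 8.64, 5.65 and 3.95 CPM in knockout replicates 1 to 3. Mcm10, which helps the CMG helicase to start unwinding, was at 24.2, 24.2 and 27.2 CPM and 10.3, 8.26 and 5.00 CPM. Both had knockout libraries far below WT, with log2 fold changes of -1.66 (SE 0.264, adjusted p = 0.00734) and -1.68 (SE 0.246, adjusted p = 0.00603) from the edgeR quasi-likelihood test. Wdhd1, which ties polymerase alpha to the helicase, had -1.52 (adjusted p = 0.0149 from edgeR), and was not called without WT replicates 1, 2 or 3 (adjusted p = 0.0528, 0.0586 and 0.0589). Tipin, of the fork protection complex, had -0.86 (adjusted p = 0.00587 from edgeR).

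The GINS subunits diverged. Gins1 was at 8.46, 7.69 and 9.87 CPM in WT replicates 1 to 3 and 3.01, 3.37 and 1.52 CPM in knockout replicates 1 to 3, and Gins3 at 8.75, 7.97 and 8.30 CPM and 3.91, 4.42 and 3.24 CPM. Neither overlapped between genotypes, with log2 fold changes of -1.72 (SE 0.302, adjusted p = 0.00924) for Gins1 and -1.11 (SE 0.169, adjusted p = 0.00652) for Gins3 from the edgeR quasi-likelihood test. Without WT replicate 3 Gins1 had an adjusted p of 0.0501. Gins4 was at 26.2, 23.8 and 25.6 CPM in WT and 25.4, 24.5 and 23.9 CPM in knockout libraries, which overlapped, with a log2 fold change of -0.037 (SE 0.0819, adjusted p = 0.753 from edgeR). Over the fits that omit a library Gins4 stayed between -0.079 and -0.0094. Per length Gins4 was the most abundant of the 3 measured subunits, at 19.7 ± 1.08 FPKM in WT and 19.4 ± 0.316 in knockout cells (SD, n = 3), and its share of their summed FPKM was 59.3%, 59.8% and 55.7% in WT and 78.6%, 76.5% and 85.2% in knockout libraries. Gins1 went from 28.4%, 28.8% and 34.1% in WT to 14.4%, 15.7% and 7.89%.

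**Figure D4:**
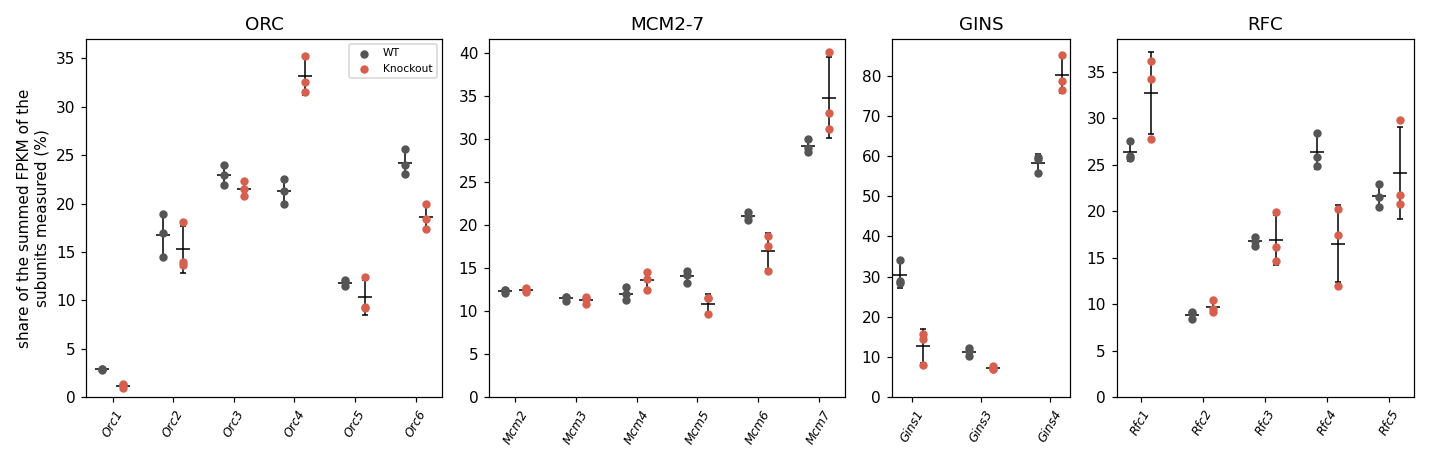
Share of each subunit in the summed FPKM of its complex (ORC, MCM2-7, the 3 measured GINS subunits and RFC) in each library, with mean and SD (n = 3 per genotype). Orc4, Mcm7, Gins4 and Rfc1 take a larger share in every knockout library than in any WT library, and Orc1, Mcm5, Gins1 and Rfc4 a smaller one. For Rfc1 the nearest libraries were 27.8% in knockout replicate 3 and 27.6% in WT replicate 2. An exact permutation test over libraries gave p = 0.1 for each of these subunits, the smallest that 3 against 3 libraries can give.

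All 9 polymerase and primase genes were lower, with a median log2 fold change of -1.46 and -1.14, -1.21 and -1.82 as the median log2 ratio in knockout replicates 1 to 3. Pola1, the catalytic subunit of polymerase alpha, was at 60.8, 71.6 and 67.2 CPM in WT replicates 1 to 3 and 27.2, 23.6 and 6.43 CPM in knockout replicates 1 to 3. It had the largest SE of the 46 genes, with replicate 3 far below the other knockout libraries, and its log2 fold change was -1.80 (SE 0.464, adjusted p = 0.0279 from the edgeR quasi-likelihood test). Without knockout replicate 3 it was -1.38 with an adjusted p of 2.82e-06. Prim2, the large primase subunit, had the smallest change of the step, at 23.1, 26.2 and 27.8 CPM in WT and 14.9, 16.5 and 10.2 CPM in knockout libraries, with -0.89 (SE 0.186, adjusted p = 0.0152 from edgeR). Within the 4 subunits of polymerase alpha-primase, Pola1 held 21.7%, 23.9% and 20.6% of the summed FPKM in WT and 18.2%, 16.5% and 7.99% in knockout, and Prim2 held 23.5%, 24.9% and 25.1% against 28.7%, 33.0% and 37.8%.

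Pold1, the catalytic subunit of polymerase delta, was at 52.8, 51.4 and 53.2 CPM in WT replicates 1 to 3 and 20.3, 22.1 and 9.72 CPM in knockout replicates 1 to 3. Pold2, its accessory subunit, was at 38.6, 39.9 and 44.2 CPM and 20.9, 20.1 and 11.7 CPM. Pole2, an accessory subunit of the leading-strand polymerase epsilon, was at 9.46, 10.4 and 10.1 CPM and 3.82, 4.27 and 2.76 CPM. In each of these genes the WT libraries lay close together and above every knockout library. Their log2 fold changes were -1.59 (SE 0.282, adjusted p = 0.00947), -1.22 (SE 0.216, adjusted p = 0.00953) and -1.46 (SE 0.192, adjusted p = 0.00466) from the edgeR quasi-likelihood test. The other 4 genes, Pola2, Prim1, Pold3 and Pole, had log2 fold changes from -1.67 for Pole to -0.90 for Pold3. Pola1 and Pole had adjusted p-values over 0.05 whichever WT library was left out, and of Pola2, Prim1, Prim2 and Pold3 each did in 2 of these fits. Over the 6 genes these ran from 0.0505 to 0.0894, and Pola1 also had 0.0509 without knockout replicate 2.

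Among the clamp, its loader and the enzymes that finish Okazaki fragments, 7 of 8 were lower with a median log2 fold change of -0.83. Pcna, the sliding clamp, was the most abundant of the 46 genes per length, at 85.4 ± 5.00 FPKM in WT (SD, n = 3) and 40.7 ± 10.0 in knockout cells. It was at 99.7, 109 and 97.1 CPM in WT replicates 1 to 3 and 54.8, 54.1 and 35.7 CPM in knockout replicates 1 to 3, and fell by 1.08 on the log2 scale (SE 0.169, adjusted p = 0.00699 from the edgeR quasi-likelihood test). Lig1, the ligase that seals Okazaki fragments, was at 75.1, 78.8 and 83.6 CPM in WT and 33.6, 27.1 and 16.7 CPM in knockout libraries. Its fall of 1.62 (SE 0.236, adjusted p = 0.00600 from edgeR) was the largest of the step. Fen1, the flap nuclease that acts before it, had -0.92 (adjusted p = 0.00622 from edgeR), and 78.8% of its exon bases are shared with Gm10143 on the opposite strand, a gene without a row in the table.

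The loader RFC has a large subunit, Rfc1, and 4 small ones. Rfc1 was at 107, 113 and 108 CPM in WT replicates 1 to 3 and 96.1, 97.5 and 53.1 CPM in knockout replicates 1 to 3. Every knockout library was below WT, but replicates 1 and 2 only slightly, and Rfc1 did not pass, with a log2 fold change of -0.41 (SE 0.222, adjusted p = 0.195 from the edgeR quasi-likelihood test). Without knockout replicate 3 it was -0.17 with an adjusted p of 0.0284, a smaller change with less spread. The small subunits ran from -1.42 for Rfc4 to -0.59 for Rfc2, with adjusted p-values of 0.00485 to 0.0115 from the same test, and without WT replicate 3 Rfc2 and Rfc4 had 0.0518 and 0.0561. Rfc1 made up 26.0%, 27.6% and 25.7% of the summed RFC FPKM in WT and 34.2%, 36.2% and 27.8% in knockout libraries, while Rfc4 went from 24.9%, 25.8% and 28.4% to 20.2%, 17.4% and 12%, as the plot of shares shows.

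RPA coats single-stranded DNA as a complex of 3 subunits, and all 3 were lower. Rpa2, the middle subunit, was at 28.7, 30.1 and 31.1 CPM in WT replicates 1 to 3 and 15.8, 15.7 and 8.24 CPM in knockout replicates 1 to 3. Rpa3, the smallest subunit, was at 16.3, 17.6 and 15.5 CPM and 11.7, 11.1 and 8.62 CPM. The knockout libraries of both lay below WT, with log2 fold changes of -1.18 (SE 0.241, adjusted p = 0.0142) and -0.65 (SE 0.140, adjusted p = 0.0162) from the edgeR quasi-likelihood test, and Rpa1 had -0.68 (adjusted p = 0.0291 from edgeR). None of the 3 passed the thresholds of the study in this test, while Rpa2 passed them by DESeq2 and by the exact test. Rpa1 and Rpa3 lost the call without WT replicate 1, and all 3 lost it without WT replicate 2 or 3, with adjusted p-values of 0.0564 to 0.0964.

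All 5 nucleotide supply genes were lower, with a median log2 fold change of -0.94. Tk1, the cytosolic thymidine kinase of the salvage route, was at 55.7, 49.1 and 55.2 CPM in WT replicates 1 to 3 and 20.4, 15.1 and 7.29 CPM in knockout replicates 1 to 3. It had the largest fall of all 46 genes, -1.90 on the log2 scale (SE 0.333, adjusted p = 0.00910 from the edgeR quasi-likelihood test), and shares 1.60% of its exon bases with Afmid on the opposite strand, which had a log2 fold change of 0.39. Tyms, which makes thymidylate de novo, was at 37.1, 34.98 and 36.7 CPM in WT and 22.1, 18.9 and 19.9 CPM in knockout libraries. It was the smallest change of the step at -0.84 (SE 0.0894, adjusted p = 0.00321 from edgeR), and the knockout libraries, replicate 3 included, lay close together.

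Ribonucleotide reductase joins a large subunit, Rrm1, to a small one, Rrm2. Rrm2 was at 108, 109 and 108 CPM in WT replicates 1 to 3 and 61.2, 50.3 and 33.96 CPM in knockout replicates 1 to 3, and Rrm1 was at 193, 202 and 201 CPM and 132, 111 and 68.5 CPM. No knockout library of either reached WT, with log2 fold changes of -1.16 (SE 0.199, adjusted p = 0.00862) for Rrm2 and -0.94 (SE 0.220, adjusted p = 0.0207) for Rrm1 from the edgeR quasi-likelihood test. Without WT replicate 1, 2 or 3 Rrm1 had an adjusted p of 0.0643, 0.0737 and 0.0756. Rrm1 held 45.5%, 46.3% and 46.2% of the summed FPKM of the pair in WT and 49.9%, 50.4% and 47.8% in knockout libraries. Dut, which removes dUTP, had -0.92 (SE 0.166, adjusted p = 0.00990 from edgeR). Rrm2b, another small subunit, induced by p53, that stands outside the 46 genes, was at 14.1, 13.7 and 11.6 CPM in WT and 16.3, 15.4 and 20.3 CPM in knockout libraries, all knockout above WT, and did not pass (log2 fold change 0.40, adjusted p = 0.0727 from edgeR).

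Other genes of replication were read from lists of 61 names, of which 56 were tested. Of these, 36 passed as lower in the edgeR quasi-likelihood test (64.3%, against 16.6% of all genes tested), 0 were higher (2 at an unadjusted p under 0.05, and 1 after adjustment by DESeq2 and by the exact test) and 20 did not pass, with a median log2 fold change of -0.84. Without WT replicates 1, 2 and 3 the number lower was 23, 22 and 17, and without knockout replicates 1, 2 and 3 it was 36, 33 and 40, beside the shares of all genes given above for these fits (5.17% to 7.31% and 11.6% to 24.2%). All 6 origin firing factors were lower, from -1.92 for Ticrr, which brings CDC45 to the helicase (adjusted p = 0.0163), to -0.76 for Mtbp, which acts with it (adjusted p = 0.0380, edgeR). Of the fork protection genes 4 of 6 were lower, from -1.68 for Clspn, the claspin checkpoint mediator, to -0.18 for Mcmbp, which did not pass. Of chromatin assembly at forks 8 of 9 were lower, from -1.68 for Chaf1b, a subunit of the histone chaperone CAF-1, to -0.032 for Tonsl, which did not pass.

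Of 3 topoisomerases only Top2a was lower (-1.78, adjusted p = 0.0279 from the edgeR quasi-likelihood test), while Top1 had -0.27 and did not pass. Among other clamp loaders and clamp partners 3 of 5 were lower, and the lowest and highest values, -1.71 for Dscc1 and -0.15 for Chtf8, both missed the threshold (adjusted p = 0.0738 and 0.146 from edgeR). Of other polymerase and primer-removal subunits 3 of 5 were lower, from -1.20 for the nuclease Dna2 to 0.086 for Pold4, which did not pass. Other nucleotide synthesis and salvage genes were lower in 11 of 22 cases, with a median of -0.39. Shmt1, the cytosolic serine hydroxymethyltransferase that supplies one-carbon units, had the lowest value at -1.55 (adjusted p = 0.0102 from edgeR). Ctps, CTP synthase, was at 90.4, 93.1 and 89.97 CPM in WT replicates 1 to 3 and 119, 118 and 327 CPM in knockout replicates 1 to 3. All knockout libraries were above WT, replicate 3 far above, and the log2 fold change of 1.05 did not pass (adjusted p = 0.0840 from edgeR).

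Genes of mitosis, a later phase of the cell cycle, were read in the same way for comparison of sizes. All 24 passed as lower in the edgeR quasi-likelihood test after adjustment, against 16.6% of all genes tested. Their median log2 fold change was -1.69 against -1.14 for the 46 replication genes, with medians of -1.26, -1.47 and -2.66 in knockout replicates 1 to 3. Knockout replicate 3 was the lowest of the knockout libraries in all 24, and in 44% of all genes tested. The difference between the medians was not tested.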

How the data were processed

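RNA-seq of 3 WT and 3 Rnf20 knockout samples of reprogrammable cells at day 3 was analysed, with groups and replicate numbers from the sample titles. The authors prepared poly(A)-selected, stranded libraries, sequenced paired-end reads and aligned them to GRCm38/mm10 with HISAT2 2.1.0. The authors deposited counts per gene without normalization for 16982 genes, of which 425 are predicted loci, and the counting program is not given in the sources used here. The deposited FPKM values, for 12633 genes, were calculated by the authors with Cufflinks 2.1.1. Their fold changes and FDR values hold the authors' own comparison and were not used.

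Counts were analysed in R 4.3.3 with edgeR 4.0.16: TMM normalization, filterByExpr at its defaults and the quasi-likelihood test without covariates, adjusted by the Benjamini-Hochberg method over 13386 genes. The common dispersion was 0.0353. Standard errors were taken from the F statistic (size of the log2 fold change over its square root). Each library held 20545442 to 21746898 counts, where 3 counts correspond to 0.142 to 0.143 CPM (counting error only). FPKM was used where levels of different genes are compared. Positions and exon overlaps came from GENCODE M21 and promoter windows from RefSeq (GRCm38.p6), searched in Python 3.11.15.

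The genes, lists and tests were chosen with earlier results of these data known. Values of every library are given for genes past the thresholds of the study, for the lowest and highest log2 fold change of each step and for MCM2-7, and in other lists the lowest and highest gene are named. Rrm2b is named outside this rule, beside Rrm1 and Rrm2, and was chosen after its values were seen. Alternatives were RLE size factors, library totals, edgeR's exact test, DESeq2 1.42.0, 2 other filters, an FDR of 0.05, no FPKM threshold, the replicate number as a block, a term for Y-linked transcripts, and each library left out.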

Additional observations from a re-analysis of the deposited data

How the results depend on the processing

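The 40 lower genes at an adjusted p under 0.05 remained 40 in number with RLE size factors, library totals, DESeq2, edgeR's exact test, no filter on low counts, a filter at CPM over 1 in 3 libraries, and the replicate number as a block, and were 20 to 41 with each library left out. With the term for Y-linked transcripts the numbers were 0 lower and 0 higher, and 0 lower among the other pathway genes. By the thresholds of the study, the 15 lower genes became 27 with DESeq2, 27 with the exact test, 27 at an adjusted p under 0.05, 0 with the replicate block, 0 with the Y-linked term, and 0 to 20 with each library left out. Over all genes tested the number went from 279 to 565 with DESeq2, 566 with the exact test, 0 with the block, 0 with the Y-linked term, and 1 to 490 with each library left out. The lower count of other pathway genes was 17 to 40 with each library left out, and 1 was higher with DESeq2, with the exact test and (0 to 1) with a library left out. The median log2 fold change stayed between -1.33 and -0.94. Orc2 changed sign with library totals (-0.030) and without WT replicate 1 (-0.0041, in a range of -0.0041 to 0.074 with each library left out), and Orc5 with the Y-linked term (0.020).

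Deviations from the group means of same-numbered samples correlated at -0.057, 0.057 and 0.0077 over genes. Those of samples with different numbers correlated at -0.081 to 0.075. Knockout replicate 3 stood apart from the other knockout libraries, so these correlations cannot decide whether the replicate numbers pair the samples. With the replicate block 40 genes were lower, 1 was higher, 34 other pathway genes were lower, 0 passed the thresholds of the study (27 lower by over 2-fold at an unadjusted p under 0.05), and 11.1% of all genes passed as lower against 16.6% without it, all in the edgeR quasi-likelihood test. With 3 samples in each group, what a change needed to pass differed between genes and between fits. Rfc1 had a log2 fold change of -0.41 (adjusted p = 0.195) with knockout replicate 3 and of -0.17 (adjusted p = 0.0284) without it, both in the edgeR quasi-likelihood test. Without that library 24.2% of all genes passed as lower against 16.6% with every library, so the whole table moved and not Rfc1 alone.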
